A study of Mus musculus with 6 samples.

Results

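The pore-forming subunit genes of voltage-gated calcium channels were examined in cortical neurons that received N40K and in neurons that received a control vector. The genes were taken by symbol, and all 8 (Cacna1a, Cacna1b, Cacna1c, Cacna1d, Cacna1e, Cacna1g, Cacna1h and Cacna1i) were present among the 15705 genes scored. N40K is an N-terminal piece of the protein that Snrnp70 encodes, which belongs to the U1 snRNP, the particle that recognises the start of an intron. The N40K group had 3 libraries of neurons exposed to FCK1.3GW-N40K lentivirus, in which a short CaMKII promoter drove N40K, and the control group had 3 libraries of neurons exposed to the FCK1.3GW vector, in which the same promoter drove EGFP. In both groups the neurons came from C57BL/6 embryos at embryonic day 18, were cultured for 7 days before exposure, and were kept with virus for 3 days. The CaMKII promoter is mainly active in excitatory neurons, the labels do not say which share of the cells took up virus, and whole cultures were sequenced, so a change in all cells and a change in some of them cannot be told apart. No label tells whether the 3 replicates of a group are 3 cultures, and p-values therefore measure only the spread between these libraries, which may be technical.

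Voltage-gated calcium channels open when the membrane is depolarised and let calcium into the cell. The pore-forming subunit sets the type of current. Cav1 subunits carry L-type current, which couples activity to gene expression, Cav2 subunits carry P/Q-, N- and R-type current, which serves transmitter release, and Cav3 subunits carry T-type current, which opens near rest and shapes firing. The deposited value is a score named Sd, 1 number per gene and library, read here as splicing deficiency. Scores of this kind set unspliced against spliced RNA of the same gene, so they are not expression levels, and a higher score stands for less complete splicing. The formula, including any correction for gene length, and the read depth behind each score are stated neither in the labels nor in the file.

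The U1 snRNP pairs with the last bases of an exon and the first bases of the intron, and the exon side of that pairing is shown for the intron at which each gene has its longest stretch to remove between coding exons. The sequences are the last 20 exon bases before that intron in the principal coding transcript of GENCODE M21 (GRCm38), read 5′ to 3′, with the last 3 bases, the U1-pairing part, in capitals.
Cacna1c, exon 3: acgccaccaactccaacCTG
Cacna1d, exon 3: attcaacaaatcataacTTG
Cacna1a, exon 3: tttgtcgtggtgctaacAGG
Cacna1b, exon 3: ttcgtggtggtcctcacGGG
Cacna1e, exon 6: ggaccactgtgctgtacAAT
Cacna1g, exon 9: gcatcgagtaccacgagCAG
Cacna1h, exon 5: cgccatcaaccgggtccCCA
Cacna1i, exon 4: ttcttcattgtcatggcAGG
The introns that follow these exons are 272.3 kb long in Cacna1c, 149.9 kb in Cacna1d, 71.7 kb in Cacna1e, 52.1 kb in Cacna1a, 24.2 kb in Cacna1b, 15.3 kb in Cacna1i, 12.8 kb in Cacna1g and 1.76 kb in Cacna1h. Of these 8 exons, only that of Cacna1g ends in CAG, the usual partner of U1 in textbooks. Over all 335 exon ends of the 8 transcripts, 71.9% end in G, against 81.1% of 153923 exon ends in the coding transcripts of all scored genes. The share ending in AG was 50.7% in the 8 transcripts and 56.1% in all. For CAG or AAG the order was the other way, with 44.8% in the 8 transcripts and 43.0% in all. The share ending in G was 64.4% to 73.9% in the 5 Cav1 and Cav2 genes, and among Cav3 genes it was 72.2% in Cacna1i, 82.4% in Cacna1h and 82.9% in Cacna1g. A share is a description of annotated transcripts, and its part in the scores was not tested.

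Scores of 6 of the 8 pore subunit genes rose in N40K neurons and none fell. Here and below, "rose" and "fell" stand for an adjusted p under 0.05 in limma, fitted over all 15705 genes with Benjamini-Hochberg adjustment. Over all genes, 21.5% rose and 4.11% fell. Both Cav1 members and all 3 Cav2 members rose, with ratios of mean scores between 1.5 and 1.94, and of the 3 Cav3 genes Cacna1i rose, with a ratio of 1.32. For the same 6 genes every N40K score lay above every control score, which held for 33.6% of all genes. The median ratio of the 8 genes was 1.60, and that of all genes 1.11.

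**Figure D1:**
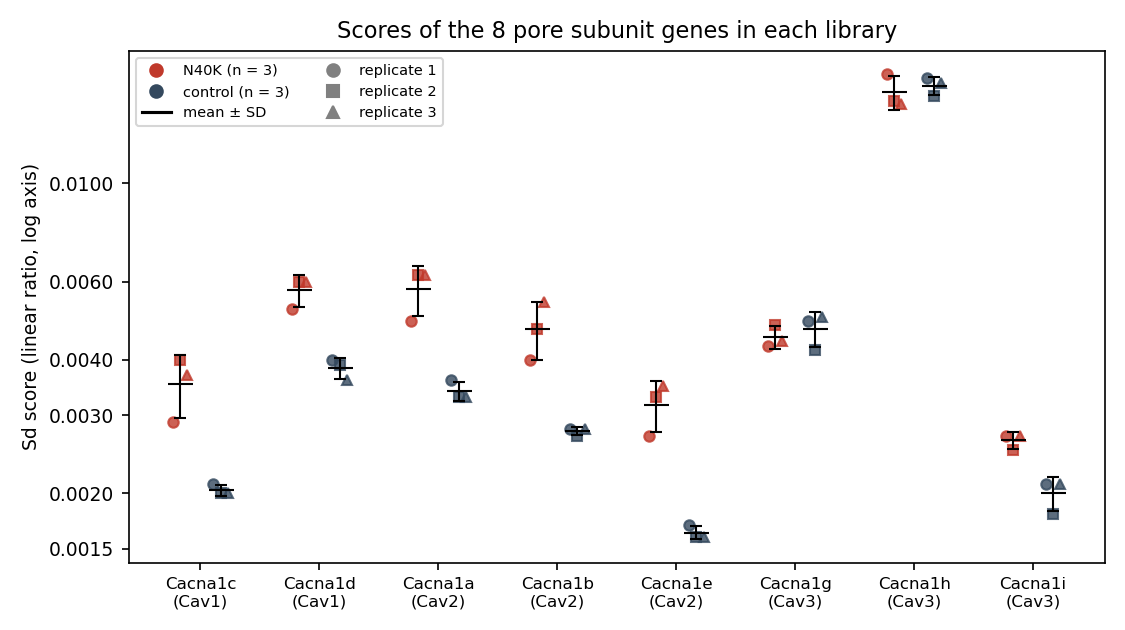
Sd score on a log axis of each pore subunit gene in each library, N40K in red and control in dark blue, with marker shapes for replicate numbers and bars for mean ± SD (n = 3). The groups lie apart in the 5 Cav1 and Cav2 genes and in Cacna1i, and overlap in Cacna1g and Cacna1h.

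The L-type genes come first. Cacna1c encodes the main L-type subunit of the forebrain. Its scores were 0.0029, 0.0040 and 0.0037 in N40K neurons, against 0.0021, 0.0020 and 0.0020 in control neurons. The lowest N40K score was that of replicate 1, and it still lay above all controls. The means were 0.00353 ± 0.000569 and 0.00203 ± 5.77e-05 (SD, n = 3 each), a ratio of 1.74, and the log2 change of score + 0.01 was 0.17 ± 0.03 (SE, limma adjusted p = 0.0159). Cacna1d encodes the L-type subunit that opens at more negative voltages. It scored 0.0052, 0.0060 and 0.0060 in N40K neurons, against 0.0040, 0.0039 and 0.0036 in control neurons, with no overlap. Its means were 0.00573 ± 0.000462 with N40K and 0.00383 ± 0.000208 in controls (SD, n = 3 each), a ratio of 1.5 and a log2 change of 0.19 ± 0.03 (SE, limma adjusted p = 0.00983). Among the 5 Cav1 and Cav2 genes this ratio was the lowest.

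The Cav2 genes serve presynaptic calcium entry. Cacna1a, the P/Q-type gene, scored 0.0049, 0.0062 and 0.0062 in N40K neurons, against 0.0036, 0.0033 and 0.0033 in control neurons. Replicate 1 was again the lowest of the N40K libraries, and the groups did not overlap. The means were 0.00577 ± 0.000751 and 0.0034 ± 0.000173 (SD, n = 3 each), a ratio of 1.70 and a log2 change of 0.23 ± 0.04 (SE, limma adjusted p = 0.0112). Cacna1b, the N-type gene, scored 0.0040, 0.0047 and 0.0054 with N40K, against 0.0028, 0.0027 and 0.0028 in controls. Its 3 controls lay within 0.0001 of each other, the last decimal of the deposited scores. The ratio of means was also 1.70, with a log2 change of 0.20 ± 0.04 (SE, limma adjusted p = 0.0138). Cacna1e, the R-type gene, had the lowest control scores of the 8 genes and the highest ratio. Its scores were 0.0027, 0.0033 and 0.0035 in N40K neurons, against 0.0017, 0.0016 and 0.0016 in control neurons. All N40K values stood clear of the controls, and the means were 0.00317 ± 0.000416 and 0.00163 ± 5.77e-05 (SD, n = 3 each). The ratio was 1.94, between 1.85 and 2.03 when rounding of the scores to 4 decimals is allowed for, and the log2 change was 0.18 ± 0.02 (SE, limma adjusted p = 0.00688).

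The T-type genes differed among themselves. Cacna1i, the T-type gene with the slowest kinetics, scored 0.0027, 0.0025 and 0.0027 in N40K neurons, against 0.0021, 0.0018 and 0.0021 in control neurons. The groups did not overlap, but the closest scores of the 2 groups were 0.0025 and 0.0021. Its means were 0.00263 ± 0.000115 and 0.002 ± 0.000173 (SD, n = 3 each), a ratio of 1.32 and a log2 change of 0.07 ± 0.02 (SE, limma adjusted p = 0.0235). Cacna1g, known for burst firing in the thalamus, scored 0.0043, 0.0048 and 0.0044 with N40K, against 0.0049, 0.0042 and 0.0050 in controls. These groups overlapped over most of their range, with a ratio of 0.957 and a log2 change of -0.02 ± 0.03 (SE, limma adjusted p = 0.692). Cacna1h, a T-type gene also studied in pain pathways, had the highest scores of the 8 genes in both groups: 0.0176, 0.0153 and 0.0151 in N40K neurons, against 0.0172, 0.0157 and 0.0168 in control neurons. Here N40K replicate 1 held the highest value of all 6 libraries and N40K replicate 3 the lowest. The ratio was 0.966 and the log2 change -0.03 ± 0.06 (SE, limma adjusted p = 0.760).

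**Figure D2:**
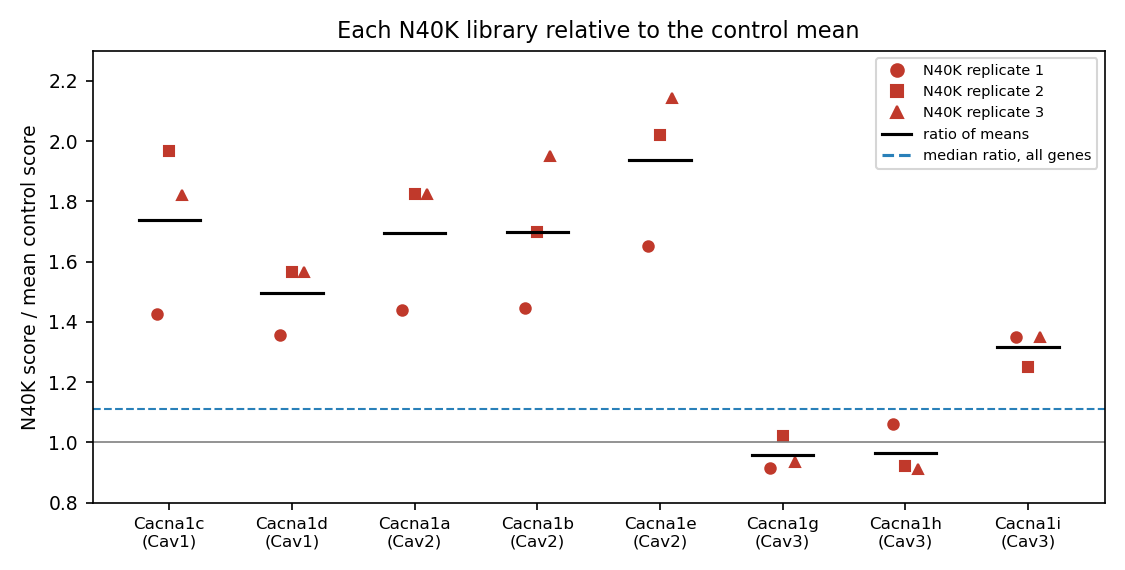
Score of each N40K library divided by the mean control score of the gene, with a black bar for the ratio of means and a dashed line at 1.11, the median ratio of all genes. All points of the Cav1 and Cav2 genes lie above 1.3, and those of Cacna1g and Cacna1h lie on both sides of 1.

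In N40K libraries Cacna1h had the highest mean score, followed by Cacna1a, Cacna1d, Cacna1b, Cacna1g, Cacna1c, Cacna1e and Cacna1i. In controls Cacna1h was followed by Cacna1g, Cacna1d, Cacna1a, Cacna1b, Cacna1c, Cacna1i and Cacna1e. With N40K the libraries of neighbouring genes overlapped from Cacna1a through Cacna1g and from Cacna1c through Cacna1i, so only the steps below Cacna1h and below Cacna1g were free of overlap. In controls the overlapping neighbours were Cacna1d with Cacna1a, and Cacna1c with Cacna1i. Cacna1a, Cacna1d and Cacna1b thus stood above Cacna1g in mean score with N40K and below it in controls. Cacna1e likewise stood above Cacna1i with N40K and below it in controls.

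Dividing 2 scores of the same library removes any multiplicative scaling between libraries. Each of the 5 Cav1 and Cav2 genes was divided by each of the 3 Cav3 genes, giving 15 ratios. Over Cacna1g, the ratio of Cacna1e was 0.628, 0.688 and 0.795 in N40K libraries, against 0.347, 0.381 and 0.320 in control libraries. All 5 ratios over Cacna1g and all 5 over Cacna1h were higher in every N40K library than in every control library, with log2 differences of 0.64 to 1.01 over Cacna1g and 0.63 to 1.00 over Cacna1h. The 5 divided genes had shown no overlap themselves and Cacna1g and Cacna1h had not risen, so this separation was largely given beforehand. These ratios also share denominators and libraries. How often other genes separate when divided by Cacna1g or Cacna1h was not computed. Over Cacna1i, only the ratio of Cacna1e was free of overlap, and the 5 log2 differences were 0.18 to 0.55. The exact permutation test over 20 assignments (2-sided) gave p = 0.1 for the 11 ratios without overlap, the smallest it can give with 3 against 3, and p = 0.2 for the others. After adjustment over the 15 ratios these were 0.136 and 0.2, so no ratio could pass a threshold of 0.05 in this design.

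The rises of the Cav1 and Cav2 genes were smallest in 1 library. Among the scaling alternatives, their calls ended only when median centring was combined with the added 0.01. They kept their calls after centring on the median deviation and after quantile normalization. N40K replicate 1 was the lowest of the N40K libraries in 5 of the 6 genes that rose, and it was the lowest in 61.8% of all genes that rose and in 47.2% of all genes. The median score of a library over all genes was 0.0146, 0.0153 and 0.0163 with N40K, against 0.0136, 0.0127 and 0.0133 in controls. On the log2 scale with 0.01 added, median centring moved the median log2 change of all genes by 0.13, from 0.06 to -0.07. Centring on the median deviation left it at -0.00587. After median centring the Cav1 and Cav2 genes remained higher with N40K without passing (limma adjusted p = 0.0513 for Cacna1a, 0.0763 for Cacna1b, 0.375 for Cacna1c, 0.226 for Cacna1d and 0.147 for Cacna1e), while Cacna1i turned to a log2 change of -0.06 (0.187). Cacna1i also lost its call after centring on the median deviation (log2 change 0.01, limma adjusted p = 0.760), after quantile normalization (0.01, 0.625) and without the eBayes trend (0.07, 0.108). Cacna1g passed as a fall after median centring (limma adjusted p = 0.0257) and after quantile normalization (0.0310). With nothing added to the scores, 22.4% of all genes rose and the same 6 genes did, and the Cav1 and Cav2 genes had log2 changes of 0.58 to 0.95. When median centring was applied to these values, a setting chosen after seeing the data, the 5 Cav1 and Cav2 genes kept their calls (limma adjusted p = 0.00438 for Cacna1e to 0.0283 for Cacna1d), with log2 changes of 0.36 for Cacna1d to 0.73 for Cacna1e. Cacna1i was higher by 0.18 in that setting without passing (limma adjusted p = 0.174), and Cacna1g had a log2 change of -0.28 (0.0725).

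Single libraries decided some calls. Cacna1b no longer passed without control replicate 2 or control replicate 3 (limma adjusted p = 0.0537 and 0.0524). Cacna1c no longer passed without any one of the 3 controls (0.0504 to 0.0598). Cacna1i no longer passed without any one control or without N40K replicate 3 (limma adjusted p = 0.0579 to 0.0705). Cacna1a, Cacna1d and Cacna1e passed whichever library was left out, with adjusted p-values of at most 0.0485.

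**Figure D3:**
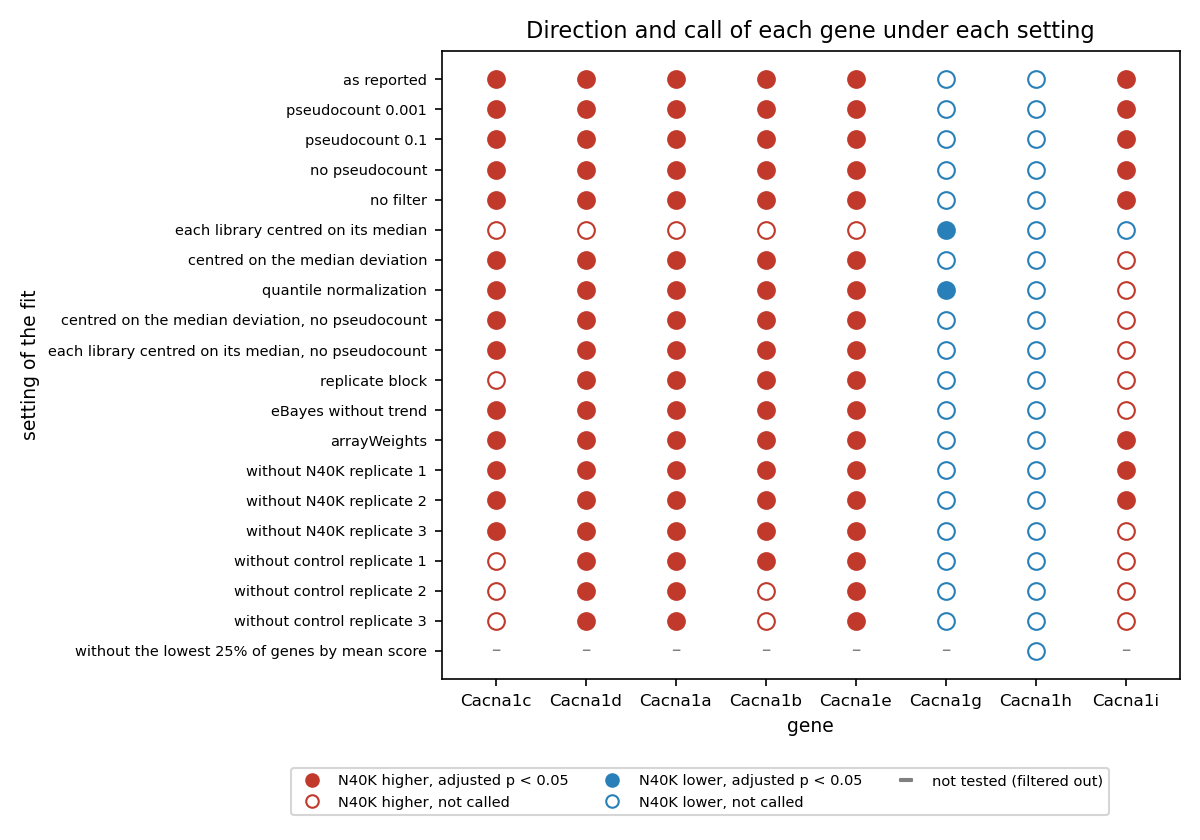
Direction and call of each pore subunit gene (columns) under each setting of the fit (rows), with red for N40K higher, blue for N40K lower and filled circles for an adjusted p under 0.05. Cacna1a, Cacna1d and Cacna1e are filled red in every row in which they were tested except the one that centres each library on its median with 0.01 added.

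The genes differ in size as well as in current type. By GENCODE M21, Cacna1c spans 609.2 kb, Cacna1e 493.8 kb, Cacna1d 451.5 kb, Cacna1a 251.8 kb and Cacna1b 159.3 kb, with 45 to 47 introns each in the principal transcript. The Cav3 genes are shorter, at 111.0 kb for Cacna1i, 65.8 kb for Cacna1g and 59.5 kb for Cacna1h, with 34 to 36 introns. Across the 8 genes, which share the libraries, Spearman's rho of gene length with the ratio of mean scores was 0.857, and across 13687 genes with an annotated coding transcript it was 0.408. The ratio also ran against the control score, with a rho of -0.738 across the 8 genes and -0.321 across the 13687. Among all genes of 50 to 100 kb, the class of Cacna1g and Cacna1h, 36.5% rose and the median ratio was 1.28. Among genes of 100 to 200 kb, the class of Cacna1b and Cacna1i, 42.9% rose with a median ratio of 1.37, and among genes of 200 to 500 kb, the class of Cacna1a, Cacna1d and Cacna1e, 46.4% rose with a median ratio of 1.5. Above 500 kb, where Cacna1c lies, 49.0% rose and the median ratio was 1.67. Cacna1g and Cacna1h therefore lay below the median ratio of their length class, as did Cacna1i, with 1.32 against 1.37, Cacna1d lay at it, and Cacna1e lay furthest above it, with 1.94 against 1.5, followed by Cacna1b with 1.70 against 1.37. The part of gene length and of score level in the changes was not tested.

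**Figure D4:**
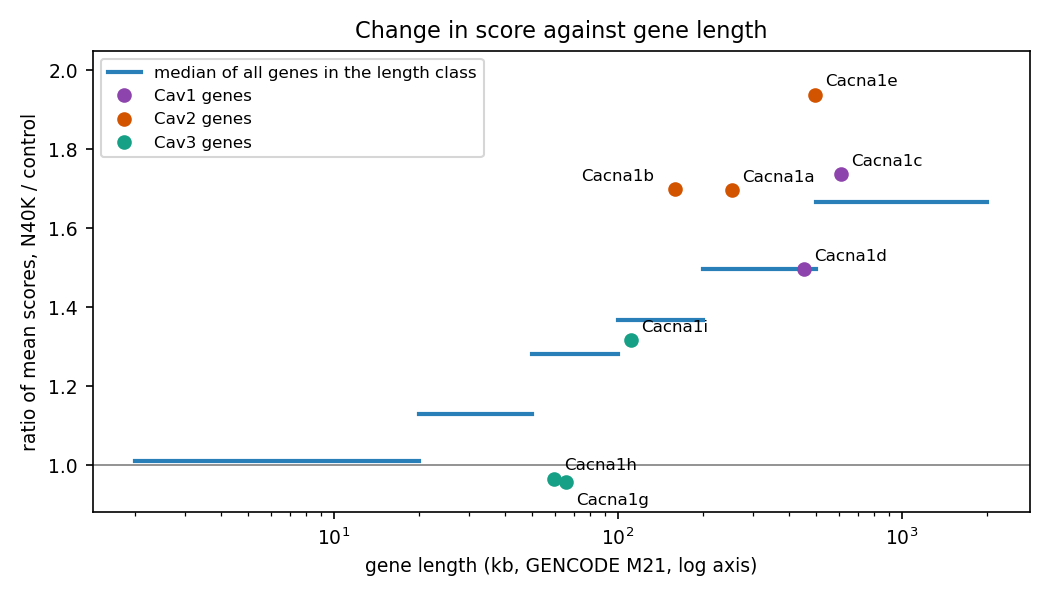
Ratio of mean scores, N40K over control, against gene length on a log axis for the 8 pore subunit genes, with blue lines at the median ratio of all genes in each length class. The ratios of all genes climb with length class, and Cacna1g and Cacna1h sit below the line of their class at 0.957 and 0.966.

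Overlapping annotation touches some of these genes. No other annotated gene overlaps Cacna1e, Cacna1g or Cacna1i. Cacna1a, Cacna1b and Cacna1h each overlap 1 gene on the opposite strand, Cacna1c overlaps 3 genes, 2 of them on the opposite strand, and Cacna1d overlaps 7, of which 6 are on the opposite strand. The libraries were stranded, but whether the scoring used strand is not given, so reads of these partners may count in the scores of Cacna1a, Cacna1b, Cacna1c, Cacna1d and Cacna1h.

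Of 10 scored genes of other voltage-gated pores, 6 (60%) rose and none fell, against 21.5% of all genes that rose. After median centring with 0.01 added 2 rose and none fell, and with nothing added 4 rose and none fell. Over all 15705 genes these settings gave 1531 rises and 2883 falls, and 2259 and 1765. The median ratio was 1.53, against 1.60 in the 8 pore subunit genes and 1.11 in all genes. The median log2 change of score + 0.01 was 0.22, against 0.17 and 0.06. Scn8a, the sodium channel of mature axon initial segments, had a ratio of 2.68 (limma adjusted p = 0.00508). Scn1a, the sodium channel of many interneurons, had a ratio of 2.21 (0.00873), and Scn2a1, the sodium channel of developing axons, 1.63 (0.0121). Scn2a1 turned to a log2 change of -0.01 after median centring with 0.01 added, but kept its call with nothing added (0.47, limma adjusted p = 0.0102). The remaining calcium channel pore genes of this list, Cacna1f of the retina and Cacna1s of skeletal muscle, did not pass, with scores of 0.135 to 0.152 for Cacna1f and 0.0069 to 0.0132 for Cacna1s in N40K neurons, against 0.137 to 0.150 and 0.0034 to 0.0099 in controls.

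Auxiliary subunits traffic and tune the pore. Of 15 scored genes listed by their alpha2delta, beta or gamma subunit names, 5 (33.3%) rose and none fell, against 21.5% of all genes that rose. Their median ratio was 1.18, against 1.11 in all genes, while their median log2 change of score + 0.01 was 0.02, against 0.06. Cacnb4, a cytoplasmic beta subunit, scored 0.0047, 0.0057 and 0.0047 with N40K, against 0.0023, 0.0022 and 0.0021 in controls (ratio 2.29, limma adjusted p = 0.00342). Cacng6, a gamma subunit best known from muscle, had a ratio of 7.23 (0.00532). Cacng2, which encodes the AMPA receptor partner stargazin, had a ratio of 1.70 (0.0161). After median centring with 0.01 added, Cacng2 turned (log2 -0.03), and 2 genes of this list rose and 6 fell. With nothing added, that centring left Cacng2 its call (0.54, limma adjusted p = 0.0181), and 4 genes rose and 2 fell. Over all 15705 genes these settings gave 1531 rises and 2883 falls, and 2259 and 1765. The 3 scored alpha2delta genes with scores below 0.01, Cacna2d1, Cacna2d2 and Cacna2d3, did not pass, nor did Cacna2d4.

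Genes that work downstream of the channels were read against the 21.5% of all genes that rose and their median log2 change of 0.06. Of 20 genes of calcium-coupled release, 5 (25%) rose, near that share, and Bsn, an active zone scaffold, fell (ratio 0.601, limma adjusted p = 0.00419). The rises with the smallest p were those of Rimbp2, Syt2 and Rims2. Rimbp2, which tethers Cav2 channels to RIM proteins, had a ratio of 2.48, Syt2, a fast calcium sensor, 2.68, and Rims2, an active zone organiser, 2.3. Rims2 turned to -0.02 (log2) after median centring with 0.01 added, and kept its call with nothing added (0.96, limma adjusted p = 0.00728). Of 24 genes between calcium entry and the nucleus, 6 (25%) rose, also near that share, and 1 fell. Ppp3cb, a calcineurin catalytic subunit, had a ratio of 2.00, Akap5, the anchor that holds calcineurin near L-type channels, 2.41, and Camk2a, a calcium-activated kinase, 1.51, a call that ended without control replicate 2 (0.0537) or control replicate 3. Median centring with 0.01 added left 0 rises and 11 falls in the release list and 3 and 10 in the nuclear list. With nothing added, that centring left 6 rises and 3 falls in the release list and 4 and 2 in the nuclear list. Those settings gave 1531 rises and 2883 falls, and 2259 and 1765, over all 15705 genes.

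Of 6 scored calcium-activated potassium channel genes 3 (50%) rose and none fell, against 21.5% of all genes that rose. After median centring with 0.01 added 1 rose and 1 fell, and with nothing added 1 rose and none fell. Over all 15705 genes these settings gave 1531 rises and 2883 falls, and 2259 and 1765. Kcnmb2, a subunit that inactivates BK channels, had a ratio of 4.51 (limma adjusted p = 0.00293), while Kcnma1, the BK pore (1.41), and Kcnn3, an SK channel (1.32), lost their calls without any library other than N40K replicate 1 and turned to -0.07 and -0.01 (log2) after median centring, where Kcnma1 passed as a fall (limma adjusted p = 0.0496). Kcnma1 also turned to -0.01 after centring on the median deviation. With nothing added to the scores, median centring left Kcnma1 and Kcnn3 higher by 0.27 and 0.17 without passing (limma adjusted p = 0.0624 and 0.1575). Centring on the median deviation with nothing added gave Kcnma1 a rise of 0.32 (limma adjusted p = 0.0458). Of 20 calcium store and clearance genes 6 (30%) rose and none fell, against 21.5% of all genes that rose. After median centring with 0.01 added 2 rose and 5 fell, and with nothing added 5 rose and 2 fell. Ryr2, a calcium release channel of the endoplasmic reticulum, had a ratio of 2.85 (limma adjusted p = 0.00945). Stim2, an endoplasmic reticulum calcium sensor (1.61), and Atp2b1, a plasma membrane calcium pump (1.31), turned to -0.02 and -0.03 after median centring with 0.01 added. With nothing added, that centring left Stim2 its call (0.46, limma adjusted p = 0.00773) and Atp2b1 higher by 0.16 without passing (0.152). Further calls of these lists ended when 1 library was left out: those of Cacng2 and Rims2 without control replicate 2 (limma adjusted p = 0.0613 and 0.0507) or control replicate 3 (0.0597 and 0.0574), those of Scn2a1 and Syt2 without control replicate 2 (0.0502 and 0.0538), and that of Atp2b1 without N40K replicate 2 or any control (0.0504 to 0.0596).

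**Figure D5:**
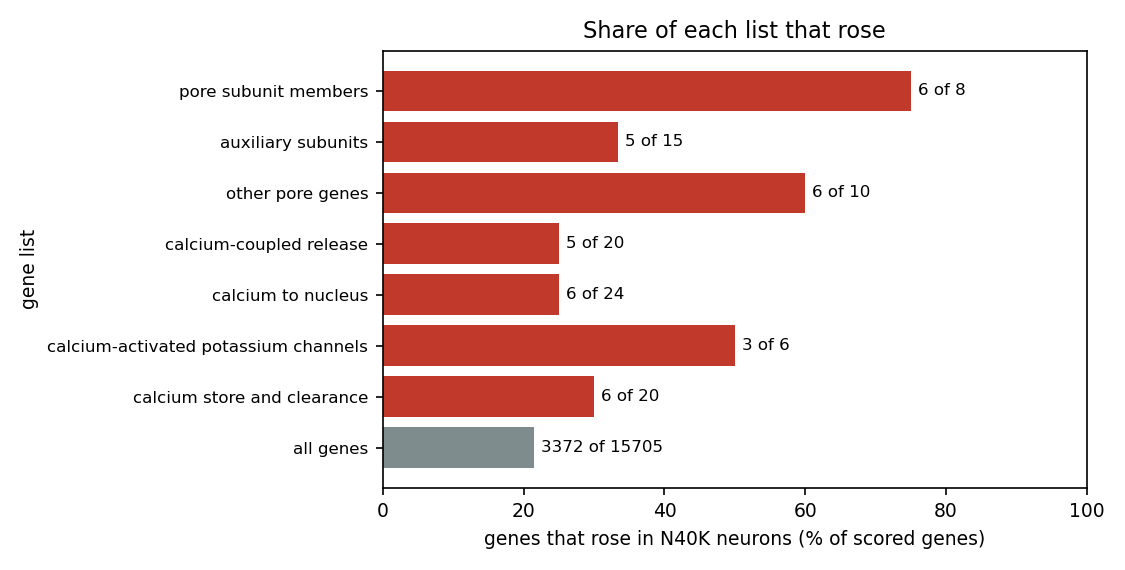
Share of the scored genes of each list that rose in N40K neurons, with counts beside the bars and all genes in grey. The pore subunit genes stand at 6 of 8 and the other voltage-gated pore genes at 6 of 10, against 21.5% of all genes.

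Among 11772 genes outside the family with mean scores above the lowest 25%, those whose scores ran most like the family's mean over the 6 libraries were Esyt1, Chd1l, Epn2, Lrrc24 and Tmem126b, with Pearson's r between 0.995 and 0.998. Epn2 did not pass (limma adjusted p = 0.079). Of the family only Cacna1h lies above that limit, so genes at the score level of the other members were not searched. Within the family, Cacna1a, Cacna1b, Cacna1c, Cacna1d, Cacna1e and Cacna1i correlated with the family mean, which includes them, at r of 0.931 to 0.954, and Cacna1g and Cacna1h at 0.01 and -0.284. These values describe 6 libraries in 2 groups.

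Markers of neurons all had scores (9 of 9, none called), as did 5 of 5 astrocyte markers, 3 of 5 of oligodendrocytes, 3 of 5 of microglia and 4 of 5 of endothelium and fibroblasts. A score does not give a marker's level, so these lists do not measure the make-up of the cultures. The microglial gene Csf1r rose, with 0.0202, 0.0215 and 0.0132 in N40K neurons, against 0.0058, 0.0083 and 0.0058 in controls, and the oligodendrocyte gene Mog fell, with 0.0816, 0.0921 and 0.0839, against 0.123, 0.122 and 0.109. The part of other cell types in the calcium channel scores was not tested. Snrnp70 itself scored 0.0242, 0.0224 and 0.0234 with N40K, against 0.0215, 0.0210 and 0.0223 in controls (limma adjusted p = 0.376). Whether N40K transcripts count towards that score is not given, so it does not check the labels.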

How the data were processed

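Poly(A) RNA of 6 libraries, 3 with N40K and 3 with control virus, was sequenced as stranded paired reads of 100 nt, per the labels' protocols. Build mm9 and the tools STAR, BWA, CASAVA and bedtools 2.16.1 appear in the submitters' processing notes, which assign them no step. The authors deposited 1 linear ratio per gene and library, the Sd score, with 4 decimals; depth is unknown, so no interval that needs it is given. Columns were assigned by name, and no column was left unused.

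After adding 0.01, log2 scores were fitted in limma 3.58.1 (R 4.3.3; lmFit, eBayes with trend, 2-sided, Benjamini-Hochberg over 15705 genes). The filter, which asked for no missing score and for 3 libraries above 0, removed no gene, and all 8 members were tested. A log2 change on this scale understates that of low scores, so ratios of mean scores are given. The code was tested on simulated data. Members and gene lists were chosen with earlier results of these data known. All members are named, plus at most 3 called genes per direction in each list, by smallest p (1 of these is not reported here), and the 5 genes most like the family. Csf1r, Mog, Snrnp70, Cacna1f, Cacna1s and the alpha2delta genes were named after their values were seen. Gene length, introns and exon ends came from GENCODE M21, which is on another build, GRCm38; 13687 genes (87.2%) matched by Ensembl identifier, and no coordinates are printed. Alternatives covered the added constant, filter, scaling, variance model, replicate number as a block and each library left out.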

Additional observations from a re-analysis of the deposited data

How the results depend on the processing

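Of the 8 pore subunit genes, 6 rose under added constants of 0.001, 0.1 or none, without the filter and with arrayWeights, and 5 without the eBayes trend and under 4 of the 5 scaling alternatives. The count was 0 after centring each library on its median, where 1 gene fell and Cacna1i turned (log2 -0.0561), and 1 gene also fell after quantile normalization. It was 0 under the filter that drops the lowest 25% of mean scores, where only Cacna1h was left to test. With a library left out 3 to 6 rose, with the lowest counts without control replicates 2 and 3. Over all genes, with 3372 rises and 645 falls as reported, leaving out a library gave 1613 to 3729 rises and 303 to 486 falls, and the stricter filter gave 1968 rises. Median centring gave 1531 rises and 2883 falls, centring on the median deviation 2235 and 1518, and quantile normalization 2022 and 1883. Without an added constant, centring on the median deviation gave 1410 falls and median centring 1765. The replicate number as a block gave 1770 rises and 328 falls, and 4 of the 8 genes rose, Cacna1c (limma adjusted p = 0.0521) and Cacna1i (0.0562) no longer passing. The deviations of same-numbered libraries correlated with r of -0.07, 0.04 and -0.02, which shows no pairing. Pairing is not excluded by these values, because deviations within 3 libraries may be mostly noise and the labels do not tell. Except where fewer genes or libraries were tested, the cause was not tested. Rounding to 4 decimals limits scores near 0.002.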
